A study of Arabidopsis thaliana with 37 samples.

Results

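The 61 probe sets described here fell between 9 and 21 days of seedling age in both wild types of the series, Col and Ler. They were chosen from 6112 probe sets bright enough to be kept, of 8247 on the array, and make up 0.998% of those kept. A probe set was taken when its mean log2 signal at 21 days was lower than at 9 days by 1 or more in Col and in Ler, every 21-day array lay below every 9-day array in each, and the wild types did not differ by 1 or more at both ages. The choice used 12 arrays of wild-type seedlings. The falls in those arrays are therefore a description, and the groups compared in tests are made of the 25 arrays the choice did not use. The spread behind each test was estimated in 1 model of all 37 arrays, the 12 included, and counts that a model of only the groups compared moves by over 1.5 times are given with both models.

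The series measured total RNA of whole Arabidopsis thaliana seedlings, labelled as biotin cRNA, on 37 one-colour Affymetrix arrays, 1 sample per array. The ago1-10 mutant was measured at 9 days (4 arrays), 21 days (3 arrays) and 35 days (3 arrays), and the ago1-11 mutant at 9 days (4 arrays) and 21 days (3 arrays). The dcl1-9 mutant, called caf in the array titles, was measured at 21 days (4 arrays). Wild-type Col was measured at 9 and 21 days (3 arrays each), and wild-type Ler at 9 days (3 arrays) and at 21 days in a first set (3 arrays) and a second set (4 arrays). The second set is titled like the dcl1-9 arrays, and its arrays were not used in the choice. The labels give no growth conditions and no share of root, shoot or flower in a sample. In such bulk RNA, fewer cells of a type and less RNA per cell cannot be told apart.

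AGO1 is the protein that most Arabidopsis microRNAs are loaded into and that cleaves their target mRNAs, and DCL1 cuts microRNAs from their precursors. Plants with weak alleles of either gene develop slowly and with altered leaf form. Class III peroxidases are secreted haem enzymes that use hydrogen peroxide to cross-link or loosen cell walls, and many are expressed most strongly in roots. Lectins bind sugars on glycoproteins and glycans, and xyloglucan endotransglucosylase/hydrolases cut and rejoin the xyloglucan chains of growing walls.

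Of the 61 probe sets, 25 matched 1 gene each in the platform annotation, 1 matched several and 35 were not listed there and are given by probe set ID. The 25 genes comprise 6 class III peroxidases, 4 lectins, 5 other cell wall or secreted proteins, 7 enzymes of metabolism and 3 others. All signals below are array signals scaled to a common median. Differences are on the scale of log2(signal + 1.2), the later age minus the earlier or the mutant minus the wild type. Group means under the filter level of 12.2 lie near background, and differences from them grow or shrink with the constant added. Of the 61, 59 would pass the filter on the 25 arrays alone and 2 passed only through the arrays of the choice.

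The median fall over the 61 probe sets was -1.60 in Col and -2.32 in Ler, beside medians of 0.0036 and -0.04 over all 6112. The falls ran from -4.13 to -1.002 in Col and from -3.97 to -1.001 in Ler, and 20 probe sets fell by 2 or more in both. The fall was larger in Ler for 49 of the 61. At 21 days the group mean was under 12.2 for 22 probe sets in Col and for 19 in the first Ler set. At 9 days it was under 12.2 for 2 in Col and for 1 in Ler. A log2 fall of 1 or more was found for 252 of all probe sets in Col (4.12%) and for 404 in Ler (6.61%).

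The limits of the choice were narrow on both sides. Just inside were the unnamed probe sets 19295_at (-1.16 in Col, -1.001 in Ler), 12037_at (-1.002 and -1.29) and 18971_at (-1.31 and -1.002). Just outside were 15107_s_at (-0.99 and -2.32), AT4G00295 (-0.99 and -1.08) and AT2G16750 (-1.11 and -0.99). A further 7 probe sets met the fall in both wild types and were left out because Col and Ler differed at both ages. Signal in the second Ler set at 21 days was below that in Ler at 9 days for all 61, by a median of -2.50. The 9-day side of that comparison was used in the choice. The median difference of the second Ler set from the first was -0.07, but single probe sets ran from -2.03 to 2.12. Of the 61, 12 were lower by 1 or more in the second set and 11 higher, beside 3.96% and 2.6% of all.

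**Figure D1:**
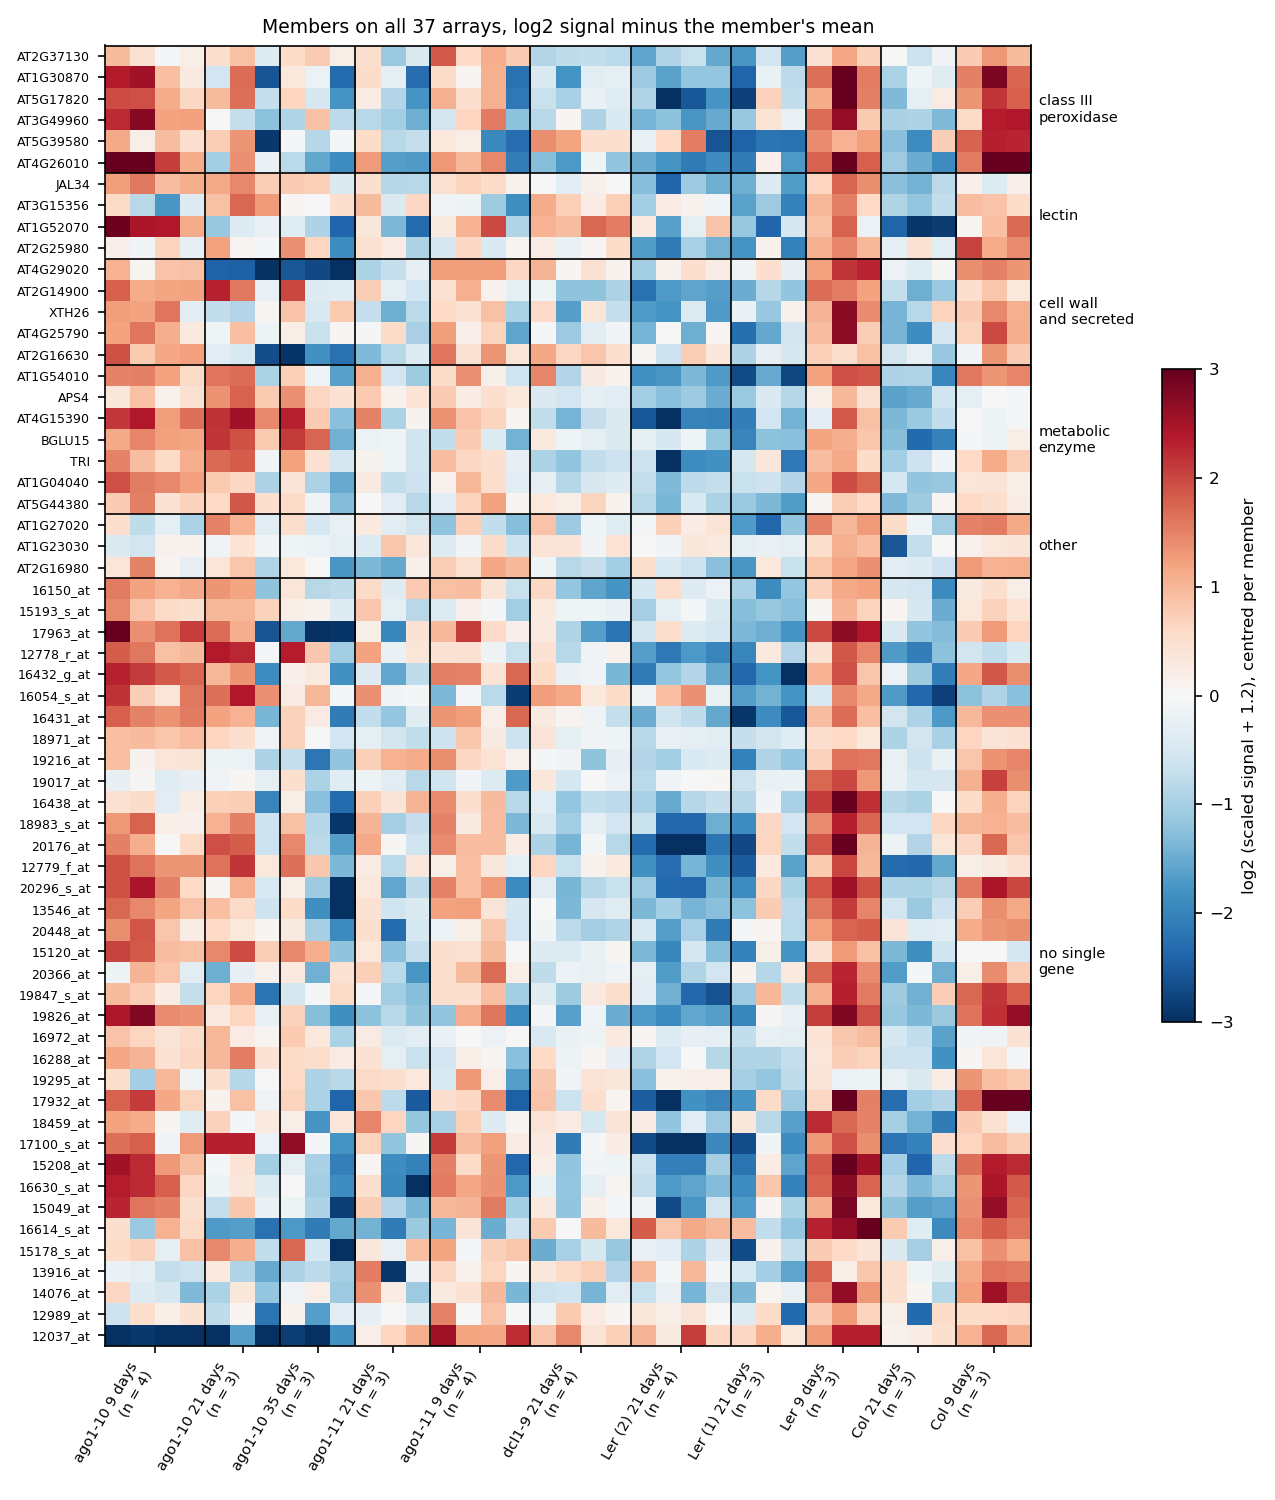
Heat map of the 61 probe sets (rows) on the 37 arrays (columns, by group), with the colour giving the log2(signal + 1.2) of each probe set minus its own mean over all arrays. The 21-day columns of Col and of the first Ler set lie below their 9-day columns by the choice itself. The second Ler set was not used in the choice, and some of its values reach those of Ler at 9 days. The ago1-10 columns at 21 and 35 days hold both high and low arrays.

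Some mutant arrays stood apart from the rest of their group in these probe sets. The median log2 signal over the 61 was 6.68, 6.59 and 5.05 on the 3 ago1-10 arrays at 21 days, and 6.36, 4.92 and 4.08 on the 3 at 35 days. The low array at 21 days, replicate 3, carries in its title the set number of the other 35-day arrays, and the high array at 35 days, replicate 1, carries that of the other 21-day arrays. Results that rest on them are given as labelled, without them, and with the pair exchanged. In ago1-11 at 9 days the medians were 6.24, 6.24, 6.22 and 5.36. The low one, replicate 4, is the only 9-day array with the strain code that all 3 ago1-11 arrays at 21 days share. Those 3 had medians of 5.97, 5.02 and 5.25. The wild-type medians were 4.46 to 5.03 in Col at 21 days, against 6.38 to 6.96 at 9 days. In Ler they were 4.18 to 5.36 in the first set and 4.51 to 4.99 in the second set at 21 days, against 6.56 to 7.66 at 9 days. The dcl1-9 arrays lay between 5.13 and 5.66. The median over all 6112 probe sets was 5.19 on each array after scaling, and no array was a copy of another. Before scaling the array medians spanned 1.58 on the log2 scale.

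**Figure D2:**
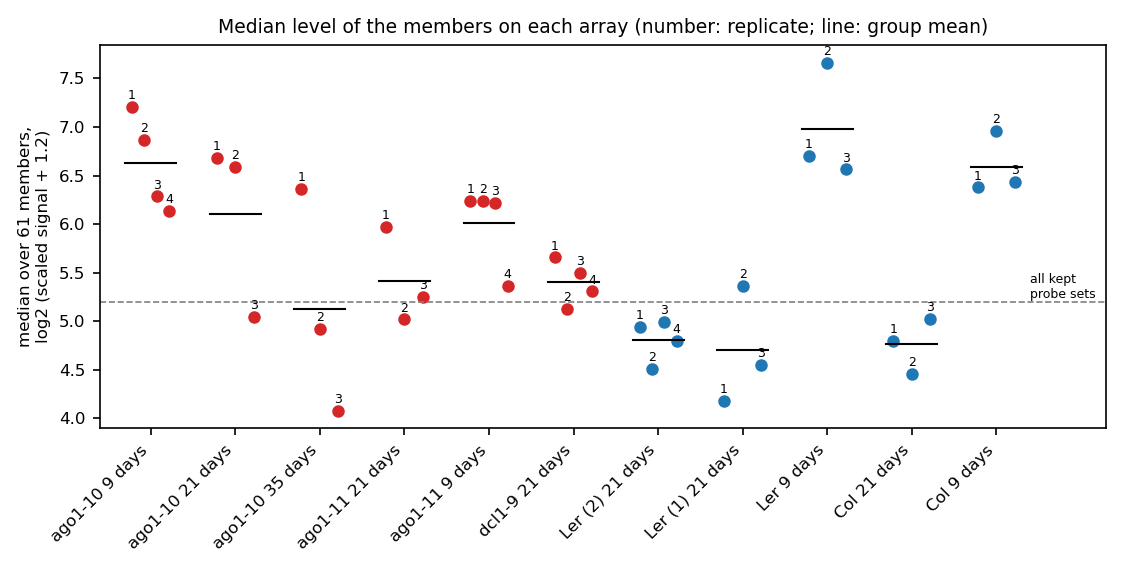
Median log2(signal + 1.2) over the 61 probe sets on each of the 37 arrays (points), by group, with a line at each group mean. The ago1-10 array of 21 days at 5.05 and that of 35 days at 6.36 lie apart from the other arrays of their groups.

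Of the named genes, the class III peroxidase AT4G26010 had the largest fall in Col. AT4G26010 read 2.07, 1.31 and 0.704 in Col at 21 days, against 19.4, 65.8 and 54.3 at 9 days. In Ler it read 0.435, 6.58 and 0.912 at 21 days in the first set and 1.30, 0.843, 0.437 and 0.719 in the second, against 22.5, 70.2 and 23.1 at 9 days. All 10 wild-type arrays at 21 days thus lay under 12.2 and all 6 at 9 days above it. The differences were -4.09 in Col and -3.53 in Ler, and as the 21-day level is near background these sizes follow the constant added. AT1G30870 read 8.99, 17.0 and 14.2 at 21 days, against 54.8, 138 and 65.3 at 9 days in Col. In Ler it read 2.52, 15.9 and 10.2 and, in the second set, 8.09, 5.34, 7.65 and 7.59 at 21 days, against 61.2, 237 and 55.8 at 9 days. AT5G39580 differed by -2.92 in Col and -3.52 in Ler, but the second Ler set read 10.4, 19.3, 37.9 and 1.04, so that 1 of its arrays was higher than all 3 of Ler at 9 days (34.8, 26.6 and 30.4). AT5G17820, AT3G49960 and AT2G37130 differed by -2.21, -2.84 and -1.25 in Col and by -2.86, -2.01 and -2.10 in Ler.

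With age, 2 of the 6 peroxidases fell in ago1-10 and 1 fell in ago1-11 (limma, adjusted p under 0.05), where 5.68% and 1.08% of all probe sets were called lower. In ago1-10 AT4G26010 read 2.27, 17.0 and 4.89 at 21 days, against 61.9, 62.3, 28.3 and 13.9 at 9 days, a difference of -2.33 (SE 0.75, limma adjusted p = 0.0395). The groups overlapped on 1 array, and the call was lost without replicate 1 or 3 of the 21-day arrays or without replicate 1, 2 or 3 of the 9-day arrays (adjusted p up to 0.203). AT3G49960 read 3.61, 1.71 and 0.841 at 21 days, against 21.1, 30.5, 9.81 and 9.91 at 9 days (-2.49, SE 0.60, limma adjusted p = 0.00663), with no overlap. In ago1-11 neither was called, and AT4G26010 read 15.8, 1.04 and 0.943 at 21 days, against 16.2, 12.5, 17.8 and 0.477 at 9 days. There AT2G37130 read 851, 280.1 and 456 at 21 days, against 2200.4, 923, 1312 and 1044 at 9 days (-1.43, SE 0.34, limma adjusted p = 0.0165). The 21-day arrays of ago1-11 all lay below those of 9 days for that gene, but the call was lost without 9-day replicate 1 (adjusted p = 0.0681), without 21-day replicate 2 (adjusted p = 0.179) and in a model of only the groups compared (adjusted p = 0.105). Against the single 9-day array of the same strain code, the ago1-11 difference of AT2G37130 was -1.13. In ago1-10 it read 1182, 842, 586 and 697 at 9 days, 869, 1119 and 464 at 21 days and 894, 1037 and 692 at 35 days, and the ages overlapped throughout.

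**Figure D3:**
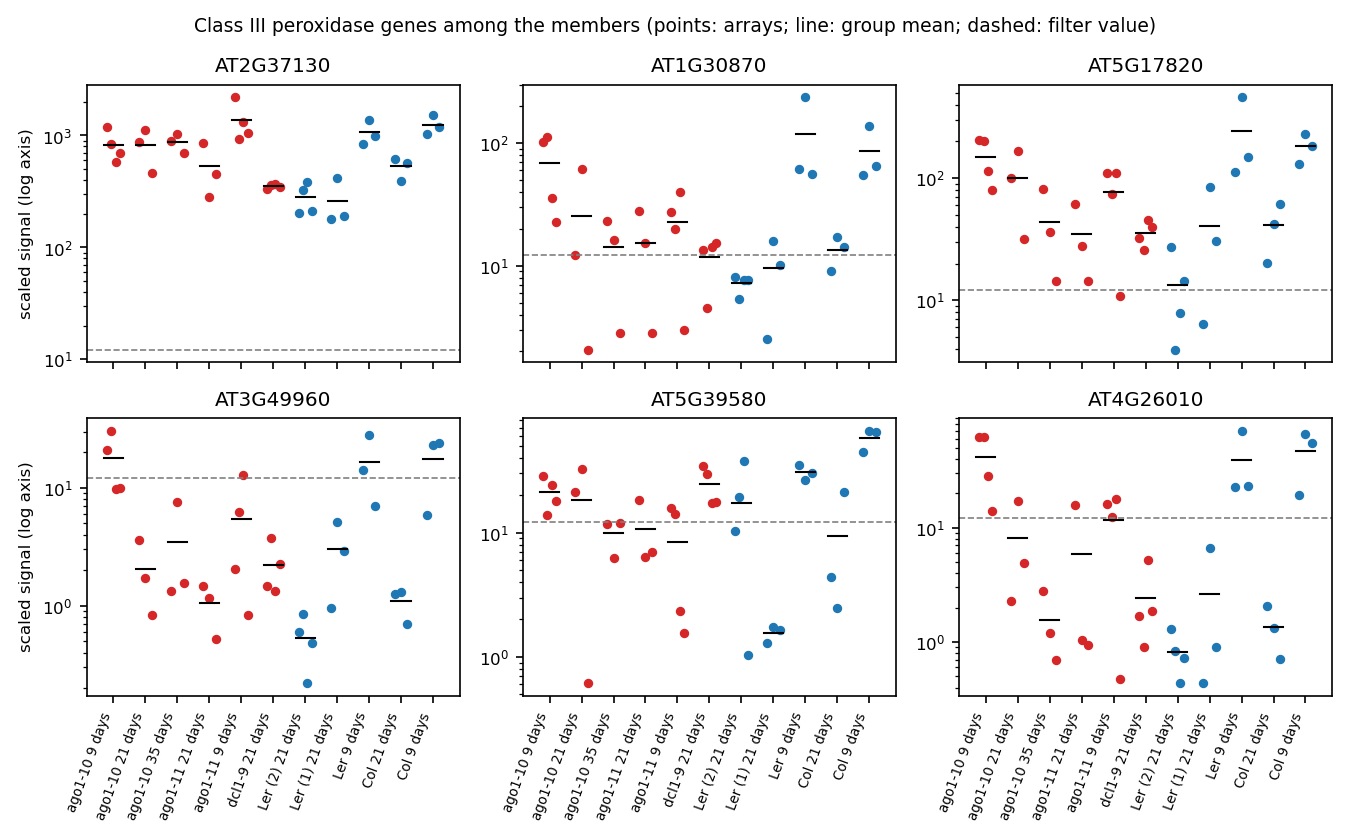
Scaled signal on a log axis of the 6 class III peroxidases in every group, with 1 point per array and a line at the group mean. The dashed line marks 12.2, the filter level, and most 21-day wild-type points of AT4G26010, AT3G49960 and AT5G39580 lie below it.

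In the wider class III peroxidase family the age differences ran both ways. Of 73 listed loci 38 were measured, and 6 of these are in the set. The other 32 had a median age difference of 0.01 in Col and -0.58 in Ler, and 15 of them were below 0 in both. With age 4 of the 38 were called lower and 3 higher in ago1-10, and 1 lower and 2 higher in ago1-11, where 5.68% and 5.04% of all were called in ago1-10 and 1.08% and 1.44% in ago1-11. In ago1-10 at 21 days 22 of the 38 were called higher than in the second Ler set and 4 lower, with a median of 1.68, and in ago1-11 14 were called higher and 1 lower. Of all probe sets 11.9% and 13% were called higher and lower in that comparison of ago1-10, and 6.59% and 4.96% in that of ago1-11.

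The 4 lectins differed from one another in the mutants. JAL34, a jacalin-related lectin, read 86.6, 77.9 and 122 at 21 days, against 234, 156 and 233 at 9 days in Col. In Ler it read 74.8, 157 and 65.0 at 21 days, against 325, 708 and 548 at 9 days. In ago1-10 it read 499, 627, 395 and 444 at 9 days, 458, 569 and 348 at 21 days and 357, 345 and 156 at 35 days. The 21-day arrays thus lay within or near the 9-day range. AT1G52070, of the same lectin family, read 5.03, 9.15 and 10.6 in ago1-10 at 21 days, against 103, 73.0, 70.5 and 28.4 at 9 days (-2.80, SE 0.63, limma adjusted p = 0.00357). In ago1-11 it read 15.9, 4.18 and 1.57, against 15.3, 27.1, 52.6 and 6.08, and was not called (-1.70, limma adjusted p = 0.182). AT3G15356, of the legume lectin family, was higher at 21 than at 9 days in ago1-10. It read 268, 483 and 356 at 21 days, against 218, 80.8, 42.3 and 111 at 9 days (1.89, SE 0.41, limma adjusted p = 0.00251). Every 21-day array lay above every 9-day array, but the call was lost with a block on the replicate letters (limma adjusted p = 0.074). At 35 days AT3G15356 read 151, 146 and 206 in ago1-10, within the 9-day range. That difference of 35 from 21 days was -1.11 and did not pass (limma adjusted p = 0.503). In Col it read 77.7, 64.1 and 86.7 at 21 days, against 279, 265 and 214 at 9 days, and in Ler 47.4, 67.5 and 34.7, against 289, 421 and 221. AT2G25980, also of the jacalin family, was dim in every group and differed by 0.29 with age in ago1-10 (limma adjusted p = 0.809).

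Among the cell wall and secreted proteins, AT4G29020, which encodes a glycine-rich protein, was lower at 21 than at 9 days in both ago1 alleles. Its falls in Col and Ler were required by the choice. It read 426, 375 and 499 at 21 days, against 1287, 1393 and 1226 at 9 days in Col. In Ler it read 449, 685 and 412 in the first set and 240.4, 524, 689 and 570.5 in the second at 21 days, against 1119.8, 2148 and 2374 at 9 days. In ago1-10 it read 1003, 515, 879.5 and 900.0 at 9 days, 88.9, 87.2 and 60.6 at 21 days and 80.3, 73.7 and 49.6 at 35 days. The 6 older ago1-10 arrays were the lowest of the 37 in the series. In ago1-11 it read 251, 302 and 403 at 21 days, against 1162, 1168, 1167 and 751 at 9 days. The fall was -3.34 in ago1-10 (SE 0.31, limma adjusted p = 7.91e-09) and -1.73 in ago1-11 (SE 0.31, limma adjusted p = 0.000829). The difference between these falls was 1.61 and did not pass (limma adjusted p = 0.081). Against the single 9-day array of the same strain code, the ago1-11 difference was -1.26.

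AT2G16630, of the Ole e 1 and extensin family, also fell in both alleles. In ago1-10 it read 81.8, 37, 48.7 and 50.9 at 9 days, 16.3, 15.0 and 2.29 at 21 days and 1.70, 5.07 and 3.51 at 35 days, and in ago1-11 7.65, 11.3 and 15.4 at 21 days, against 66.5, 29.0, 54.6 and 27.3 at 9 days. The differences of 21 from 9 days were -2.43 (SE 0.42, limma adjusted p = 0.000237) in ago1-10 and -1.79 (SE 0.42, limma adjusted p = 0.0152) in ago1-11, with no overlap of ages in either. Both 21-day means were under 12.2. The ago1-11 call was lost without 9-day replicate 1 or 3 or 21-day replicate 1 or 2. Against the single 9-day array of the same strain code, the ago1-11 difference was -1.22. XTH26, a xyloglucan endotransglucosylase/hydrolase, and AT4G25790, of the CAP protein family that includes pathogenesis-related proteins, were dim in every group. Their age differences did not pass in ago1-10 (-1.44 and -0.85) or ago1-11 (-1.22 and -0.28). AT2G14900, of the gibberellin-regulated protein family and named after its values were seen, read 334, 208, 221 and 225, 478, 288 and 82.2 and 390.3, 72.9 and 74.3 in ago1-10 at 9, 21 and 35 days. Its 21-day and 35-day groups each held arrays on both sides of the 9-day range.

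Of the 7 metabolic enzymes, 1 fell and 1 rose with age in ago1-10, where 5.68% and 5.04% of all were called lower and higher, and none was called in ago1-11. AT1G04040, of the HAD family of acid phosphatases and named after its values were seen, read 107, 95.3 and 31.9 at 21 days, against 240.4, 181, 169.8 and 146 at 9 days (-1.38, SE 0.36, limma adjusted p = 0.0117), and the call was lost without 21-day replicate 3 (adjusted p = 0.155). APS4, an ATP sulfurylase whose mRNA is a known microRNA target, read 516, 687 and 346, against 255, 371, 221 and 278 (0.84, SE 0.26, limma adjusted p = 0.0337). The ages overlapped on 1 array, and this call was lost without any of 5 single arrays (adjusted p up to 0.216). In Col APS4 read 65.4, 69.4 and 133 at 21 days, against 165, 198 and 192 at 9 days, and in Ler 92.2, 147 and 109, against 226, 397 and 275. AT1G54010, of the GDSL lipase family, had the largest fall in Ler among the 61, to 40.3, 92.3 and 38.9 at 21 days, against 612, 1015 and 963 at 9 days. In ago1-10 it read 741, 760.1, 609 and 396 at 9 days, 812, 843 and 137 at 21 days and 437, 241 and 85.0 at 35 days. Replicates 1 and 2 at 21 days were above every 9-day array and replicate 3 below.

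Over the whole set, most age differences in both ago1 alleles were below 0 with all arrays as labelled. In ago1-10, 8 of the 61 were called lower at 21 than at 9 days and 2 higher, where 5.68% and 5.04% of all 6112 were called (limma, adjusted p under 0.05). The median difference was -0.40, beside -0.01 over all probe sets, and 43 were below 0. All 21-day arrays lay below all 9-day arrays for 13 of the 61, and for 11.1% of all. The unnamed probe sets called lower were 16432_g_at and 16614_s_at, beside AT4G29020, AT2G16630, AT1G52070, AT3G49960, AT4G26010 and AT1G04040. The median rested on 1 array. Relative to the 9-day mean, the median over the set was -0.05, 0.15 and -1.34 on the 3 arrays of 21 days. Without the low one, replicate 3, the median was 0.08, and 5 were called lower and 3 higher (5.14% and 4.29% of all). With the 2 arrays exchanged by title number the median was -0.05, with 8 lower and 3 higher (8.95% and 7.17% of all).

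In ago1-11, 6 of the 61 were called lower at 21 days and none higher, where 1.08% and 1.44% of all were called. They were AT4G29020, AT2G16630, AT2G37130, AT2G16980, which encodes a major facilitator superfamily protein, and the unnamed 16431_at and 16432_g_at. The median difference was -0.69, beside 0.0075 over all probe sets, and 46 were below 0. At an unadjusted p under 0.05 there were 18 of the 61, beside 14% of all. All 21-day arrays lay below all 9-day arrays for 8 of the 61, and for 4.6% of all. The count was 4 in a model of only the groups compared (0.425% lower and 0.802% higher of all), 1 without 9-day replicate 1 or without 21-day replicate 2, and 3 without 21-day replicate 1. When the 3 arrays of 21 days were set against the single 9-day array of the same strain code, none was called lower and 2 higher (0.18% and 1.34% of all), and the median was 0.19. The lone 9-day array is there assumed to vary like the other groups. The 2 called higher were AT3G15356 and the unnamed 16054_s_at.

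Between the alleles, 37 of the 61 were below 0 with age in both (60.7%, beside 29.1% of all probe sets), 9 were above 0 in both, and the rest differed in sign, 6 with ago1-10 below and 9 with ago1-11 below 0. Without replicate 3 of ago1-10 at 21 days, 29 of its differences were below 0 and 32 above. Against the 9-day array of the same strain code, 24 in ago1-11 were below 0 and 37 above. Those called lower in both alleles were AT4G29020, AT2G16630 and 16432_g_at, 3 of the 61, beside 24 of all 6112. The unnamed 16432_g_at read 582, 744 and 77.8 at 21 days, against 1448, 1251, 1046 and 967 at 9 days in ago1-10. In ago1-11 it read 222, 98.2 and 171, against 837, 824, 389.8 and 963. No age overlapped in either allele, but its call was lost without any of 4 single arrays in ago1-10 (adjusted p up to 0.382) and without any of 6 in ago1-11 (adjusted p up to 0.172). The age effect itself was tested for a difference between the alleles, and 0 of the 61 passed in limma, where 0.507% of all passed, with 6 of the 61 at an unadjusted p under 0.05 and a smallest adjusted p of 0.081. The count was 1 without replicate 2 of ago1-11 at 9 days, and 1 with the pair of ago1-10 arrays exchanged.

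**Figure D4:**
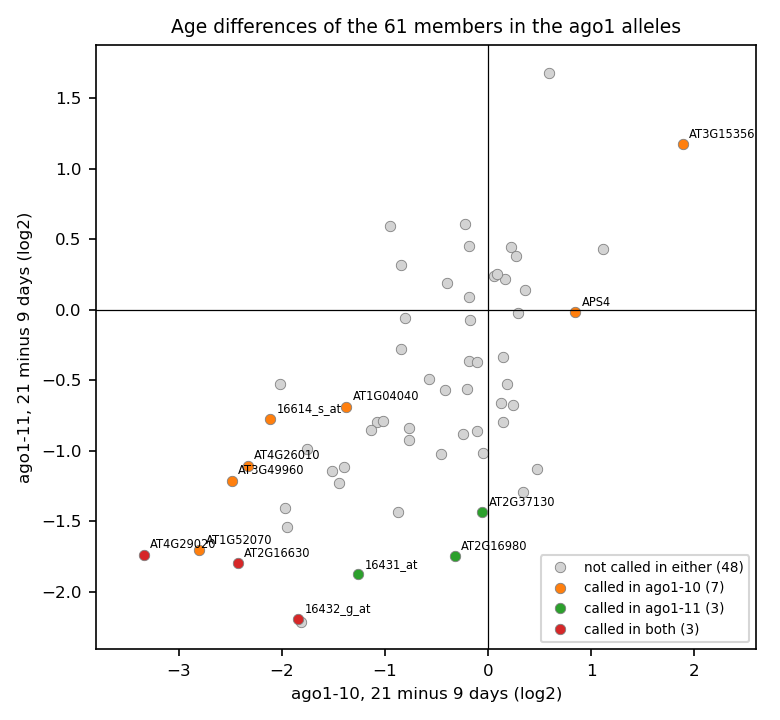
Difference of 21 from 9 days on the log2 scale in ago1-11 (vertical axis) against ago1-10 (horizontal axis) for the 61 probe sets, with the colour marking those called lower or higher in limma. Of the points, 37 lie below 0 on both axes, and AT4G29020 lies farthest to the left.

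From 21 to 35 days in ago1-10, 0 of the 61 were called in limma as labelled, where 0.0327% of all were called lower and 0.0164% higher. At an unadjusted p under 0.05 there were 13 of the 61, beside 8.18% of all, and the smallest adjusted p was 0.225. The median difference was -0.80, with 53 below 0. In the labelled groups the 21-day arrays share a strain code and the 35-day arrays share another. Age and strain code cannot be told apart there, nor when arrays are left out. The labelled groups also hold the 2 arrays that stood apart. Without both, 21 of the 61 were called lower and none higher (3.16% and 3.45% of all), with a median of -1.63. Without the low array of 21 days alone the count was 2, and without the high array of 35 days alone it was 4. With the pair exchanged, 24 were called lower and none higher (5.61% and 6.17% of all), with a median of -1.30. Among them were AT2G14900 (-2.29, limma adjusted p = 5.9e-05), AT1G54010 (-2.23, limma adjusted p = 0.00318) and BGLU15 (-1.69, limma adjusted p = 0.0147). The exchange and the removal of both arrays were chosen after their signal over these same probe sets was seen. Moving or leaving out a low 21-day array and a high 35-day array by itself favours a fall. BGLU15, a beta-glucosidase that acts on flavonol glycosides, read 98.9, 126, 106 and 103 at 9 days, 201, 170.1 and 77.2 at 21 days and 196, 152 and 15.7 at 35 days under the labels. Its 35-day arrays were thus split between 2 high values and 1 low.

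At 21 days the set stood higher in ago1-10 than in wild-type Ler, tested with the second Ler set. Of the 61, 28 were called higher and 4 lower (45.9% and 6.56%), where 11.9% and 13% of all probe sets were called, and the median difference was 1.25, beside 0.02 over all. All ago1-10 arrays lay above all Ler arrays for 29 of the 61, and for 16.8% of all. The test was added after values had been seen, and the second Ler set also serves in the ago1-11 and dcl1-9 comparisons below. The choice took probe sets low in wild-type arrays of 21 days, the first Ler set among them. It thus favours mutant signal above the second Ler set in these comparisons, and the shares over all probe sets do not correct for this. AT4G15390, of the HXXXD acyltransferase family, read 392, 505 and 238 in ago1-10, against 13.9, 3.84, 20.8 and 20.5 in Ler (4.72, SE 0.58, limma adjusted p = 3.54e-07). In the first Ler set AT4G15390 read 19.9, 57.8 and 31.6. APS4 read 516, 687 and 346, against 96.9, 83.8, 94.0 and 70.7 (2.52, SE 0.26, limma adjusted p = 2.37e-08). JAL34 read 458, 569 and 348, against 85.4, 38.4, 97.2 and 75.1 (2.66, SE 0.34, limma adjusted p = 8.19e-07). For each of these 3 genes the groups did not overlap.

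By role, all 7 metabolic enzymes were called higher in ago1-10 than in the second Ler set (11.9% of all were called higher), though the call of AT1G04040 was lost without replicate 1 or 2 of ago1-10 or replicate 2 of the second Ler set (adjusted p up to 0.244), with no filter and in a model of only the groups compared. They included TRI, a tropinone reductase-like enzyme named after its values were seen (2.99), AT1G54010 (2.43), BGLU15 (2.12), AT5G44380 of the berberine bridge enzyme-like family (1.89) and AT1G04040 (1.04). Of the 4 lectins 3 were higher, JAL34, AT2G25980 (1.95) and AT3G15356 (1.47). Of the 6 peroxidases 2 were higher, AT5G17820 (2.78) and AT2G37130 (1.498). AT5G17820 read 101, 167 and 31.6 in ago1-10, against 27.4, 3.93, 7.94 and 14.4 in Ler. The cell wall and secreted group was split, with AT2G14900 higher (3.01) and AT4G29020 (-2.58) and AT2G16630 (-1.28) lower. AT4G29020 read 88.9, 87.2 and 60.6 in ago1-10, against 240.4, 524, 689 and 570.5 in Ler (SE 0.31, limma adjusted p = 1.91e-07). The other 2 lower probe sets, 12037_at and 16614_s_at, are unnamed. Without replicate 3 of ago1-10 the counts were 34 higher and 3 lower (13.1% and 13.6% of all), and the call of AT2G16630 was lost. Without replicate 2 they were 18 higher and 5 lower (8.49% and 9.91% of all), and without replicate 1 21 higher and 4 lower (8.03% and 9.02% of all). The call of AT3G15356 was lost without replicate 2, and that of AT2G25980 without replicate 1. With the pair of arrays exchanged they were 33 higher and 4 lower (17% and 17.2% of all), and the call of AT3G15356 was lost there too.

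In ago1-11 at 21 days, 11 of the 61 were called higher than the second Ler set and 1 lower, where 6.59% and 4.96% of all were called, and the median difference was 0.55. The named genes were AT4G15390 (2.89, limma adjusted p = 0.00106), AT2G14900 (1.75), APS4 (1.65, limma adjusted p = 8.29e-05), TRI (1.63) and JAL34 (1.16, limma adjusted p = 0.0256). The calls of TRI, AT2G14900 and JAL34 were each lost without at least 1 single array. APS4 read 346, 219 and 265 in ago1-11, against 96.9, 83.8, 94.0 and 70.7 in Ler, with no overlap. None of the 6 peroxidases was called. The probe set called lower was the unnamed 16614_s_at. The count of 12 called was 6 without replicate 1 of ago1-11 and 7 without replicate 2 of the second Ler set.

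In dcl1-9 at 21 days, 2 of the 61 were called higher than the second Ler set and 0 lower, where 0.638% and 0.147% of all were called, and 21 were at an unadjusted p under 0.05. The median difference was 0.71, beside -0.03 over all probe sets, and 52 were above 0. All dcl1-9 arrays lay above all Ler arrays for 14 of the 61, and for 5.74% of all. JAL34 read 210.5, 165, 234 and 207 in dcl1-9, against 85.4, 38.4, 97.2 and 75.1 in Ler (1.52, SE 0.32, limma adjusted p = 0.0126). The unnamed 12779_f_at read 288, 115, 201 and 226, against 51.7, 36.99, 69.5 and 50.3 (1.93, SE 0.49, limma adjusted p = 0.0458). Both sets of arrays were apart, though the probe set's suffix marks possible cross-hybridisation within a family. AT1G54010 read 729, 144, 318 and 285, against 74.8, 77.5, 103 and 80.8, also apart, and did not pass (1.89, limma adjusted p = 0.0794). AT4G15390 read 52.0, 32.2, 53.9 and 64.2, against 13.9, 3.84, 20.8 and 20.5 (1.87, limma adjusted p = 0.109), and these groups did not overlap either. AT2G16980 and AT1G27020 were the lowest of the named genes (-0.21 and -0.51) and were not called.

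Leaving out single arrays gave 0 to 3 called, with 0 without dcl1-9 replicate 1 or 3 or without replicate 2 of the second Ler set. A model of these 2 groups alone called 12 of the 61 higher (2.55% higher and 2.11% lower of all). The dcl1-9 arrays had medians of 50.4 to 58.15 over the kept probe sets before scaling, against 35.45 to 48.6 in the second Ler set, and the part of this in the result was not tested.

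**Figure D5:**
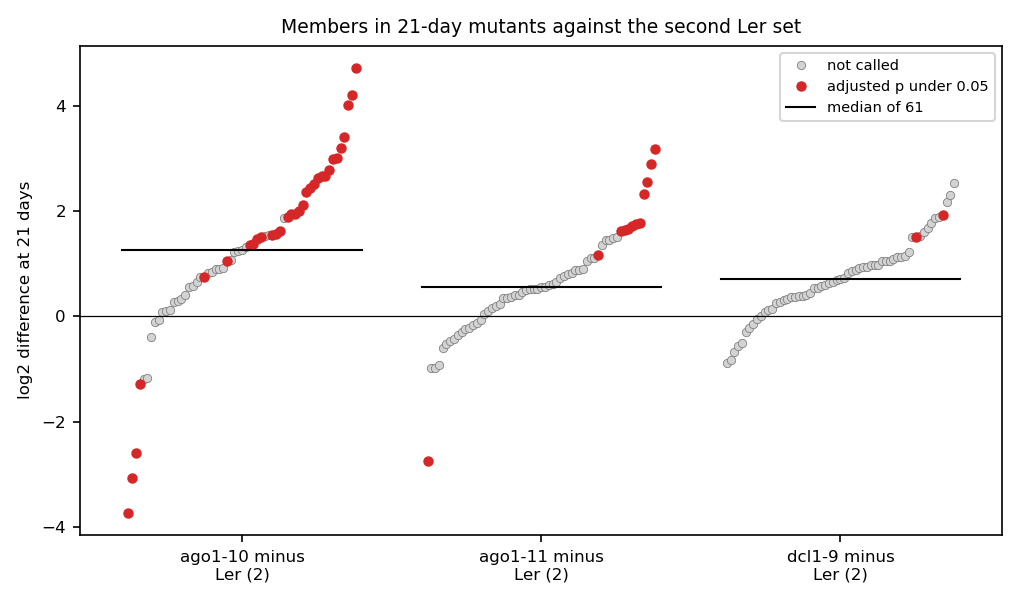
Differences on the log2 scale of ago1-10, ago1-11 and dcl1-9 from the second Ler set at 21 days for the 61 probe sets, 1 point per probe set, with the colour marking those called in limma. The medians are 1.25, 0.55 and 0.71, and the 3 comparisons share the same 4 Ler arrays. The choice of probe sets low in 21-day wild types favours values above 0.

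The alleles also differed from each other. At 9 days 8 of the 61 were called lower in ago1-11 than in ago1-10 and 1 higher, where 6.71% and 7.17% of all were called, and the median difference was -0.72. BGLU15 read 26.4, 76.2, 33.9 and 15.97 in ago1-11, against 98.9, 126, 106 and 103 in ago1-10 (-1.70, SE 0.46, limma adjusted p = 0.0125), with no overlap. AT3G49960 (-1.74) and AT1G04040 (-1.21) were the other named genes called lower. Without replicate 4 of ago1-11 the calls of BGLU15, AT3G49960 and AT1G04040 were lost (limma adjusted p = 0.0742, 0.16 and 0.08). The calls of AT3G49960 and AT1G04040 were also lost without other single arrays. The unnamed 12037_at read 108, 41.2, 41.0 and 85.8 in ago1-11, against 0.512, 1.30, 0.617 and 1.02 in ago1-10 (4.98, SE 0.39, limma adjusted p = 4.1e-11). On the 10 ago1-10 arrays of any age its signal was at most 4.76, and on the other arrays of the series at least 19.4, so that the size of the difference follows the constant added. Without replicate 4 of ago1-11, the array low over the whole set, 2 were called, and without replicate 1, 5.

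At 21 days 5 of the 61 were lower in ago1-11 than in ago1-10 and 3 higher, where 2.6% and 4.73% of all were called, with a median of -0.74. JAL34 read 294, 114 and 116 in ago1-11, against 458, 569 and 348 in ago1-10 (-1.51, SE 0.37, limma adjusted p = 0.00977). BGLU15 read 39.4, 40.3 and 28.9, against 201, 170.1 and 77.2 (-1.92, limma adjusted p = 0.0217). AT5G44380 was also lower (-1.39), and AT4G29020 was higher, at 251, 302 and 403 in ago1-11, against 88.9, 87.2 and 60.6 in ago1-10 (1.99, SE 0.33, limma adjusted p = 0.000329). In all 4 genes the groups did not overlap. JAL34, BGLU15 and AT5G44380 each lost their call without at least 1 single array. The unnamed 15120_at and 16288_at were lower and 12037_at and 19216_at higher. The count of 8 was sensitive to single arrays, from 2 without replicate 2 or 3 of ago1-11 to 17 (15 lower, 2 higher, beside 3.57% and 6.56% of all) without replicate 3 of ago1-10, when the median was -1.13. With the pair of arrays exchanged it was 22 (19 lower, 3 higher, beside 6.38% and 9.65% of all). It was 3 in a model of only the groups compared (0.344% lower and 0.638% higher of all), 14 without replicate 1 of ago1-11, 5 without replicate 1 of ago1-10 and 3 without replicate 2 of ago1-10.

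Lists formed by matching words in gene symbols and synonyms were set beside the 61 probe sets, which are 0.998% of all kept. The cell wall growth list had 14 measured genes, of which XTH26 is in the set, the lipid list 2, of which AT1G54010 is, and the jacalin-related list 3, of which JAL34 is. These lists miss genes whose table entry holds no such word, such as AT1G52070 and AT2G25980, so a class can hold more genes than its list. Photosynthesis and chlorophyll had 14 measured genes, defence and stress 26, cell division and cytoskeleton 13, transport and cytochrome P450 8, root words 6, seed reserve and germination 4, and ribosome, flower and hormone words 1 each, with 0 in the set. The median age difference of the photosynthesis genes was 0.23 in Col and -0.15 in Ler, and that of the cell division genes 0.21 and -0.30. Of the 61 probe sets 18 have a suffix other than plain _at, and most of these suffixes mark probes that may be shared between sequences. In addition, 5 pairs have consecutive probe set numbers and may report the same transcript.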

How the data were processed

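The authors deposited signal intensity on a linear scale, and the submitters' processing notes name MAS5 as the tool. No source used here gives the MAS5 version, its scaling target or a genome build, and detection calls were not used. Cells with exactly 3 decimals (7913 cells in 491 probe sets) were multiplied by 1000, since no other reading exceeds 999.9. Probe sets above 12.2 (the 40th percentile) on at least 3 arrays were kept (6112), arrays were brought to a common median, and 1.2 (the 10th percentile) was added before log2.

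One limma model (3.58.1 in R 4.3.3, group means, eBayes with trend) held all 37 arrays, with calls at an adjusted p under 0.05 (Benjamini-Hochberg, over 6112 probe sets). The fit was also run on simulated data with known changes and independent noise. Those data held no outlying arrays or strain codes, and the outcome is not given here. Counts and plots were made in Python 3.11.15 (numpy 2.4.6, pandas 2.3.3, matplotlib 3.10.9). Replicates are biological by the series text, and the number of arrays limits the precision. The labels give no array batches.

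The 61 members and all lists were chosen with earlier results of these data known. Genes were named by rank: the largest wild-type falls, the lowest and highest differences in each comparison, and list members, 22 of the 25 genes in all. Symbols came from the TAIR10.1 gene table. Planned counts of promoter motifs were not made, as no promoter sequences were used here. Alternatives were quantile normalization, a trimmed-mean scale, 16 added in place of 1.2, no filter, the 3-decimal cells left out, plain probe sets only, a model of the groups compared, strain codes, title numbers, replicate blocks and single arrays left out. The comparisons of ago1-10 and ago1-11 with the second Ler set, the exchange of arrays and the ago1-11 strain code were added after the data had been seen.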

Additional observations from a re-analysis of the deposited data

Results flagged for a closer look

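In 88 groups of 4 arrays, from the named genes, 6 held an array whose gap to the nearest other was above Dixon's 95% critical value, as a share of the group's range, and chance gives about 1 in 20. Gap and range are on the scale of log2(signal + 1.2), and the values below are signals. In ago1-11 at 9 days replicate 4 was the lowest array for AT4G26010, at 0.477 (16.2, 12.5, 17.8 and 0.477), and for AT4G29020, at 751 (1162, 1168, 1167 and 751). That array also had the lowest median over the 61 probe sets in its group. In dcl1-9 replicate 2 was the lowest for AT1G30870, at 4.50 (13.5, 4.50, 14.3 and 15.2), and replicate 3 for AT1G23030, a U-box protein with armadillo repeats, at 19.4 (27.6, 27.3, 19.4 and 27.6). In the second Ler set replicate 2 was the lowest for AT1G30870, at 5.34 (8.09, 5.34, 7.65 and 7.59), and replicate 3 the highest for XTH26, at 3.64 (0.799, 0.656, 3.64 and 0.799). The XTH26 and AT1G30870 values of that set lie under 12.2, near background.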

How the results depend on the processing

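The choice gave 61 probe sets, 37 with 16 added in place of 1.2, and 55 to 61 under the other processing alternatives run for it. The choice was not rerun on plain probe sets, which make up 43 of the 61. Leaving out single arrays gave 59 to 80.

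The counts of members called with age in ago1-10 stayed within 1.5 times of 10 under each alternative run (7 to 11 without single arrays). A block on the replicate letters called 9. In ago1-11 the count of 6 was 3 with the 3-decimal cells left out, 3 over plain probe sets, 2 (both higher) with 1 strain code, and 1 to 5 without single arrays. For 35 against 21 days the count of 0 was 21 without the 2 arrays that stood apart, 24 with them exchanged, and 0 to 4 without single arrays. For dcl1-9 the count of 2 was 1 with 16 added, 1 with no filter, 1 over plain probe sets, 12 in a model of the groups compared, 10 with a replicate block, and 0 to 3 without single arrays. Deviations of samples with the same letter or number correlated at 0.259, 0.054 and -0.118 in ago1-10 and at 0.083, 0.083 and 0.172 in dcl1-9, and 2 of 6 and 6 of 6 samples correlated best with their own label, a hint from the data and not from the design, so no pairing was used. Between the alleles the count of 9 at 9 days was 2 to 11 without single arrays. At 21 days the count of 8 was 3 in a model of the groups compared, 22 with the arrays exchanged, and 2 to 17 without single arrays. The age effects differed for 0, 1 with the arrays exchanged and 0 to 1 without single arrays. Against the second Ler set the counts of 32 in ago1-10 and 12 in ago1-11 were 20 and 7 over plain probe sets, and 23 to 37 and 6 to 13 without single arrays. The cause of these shifts was not tested, except that fewer probe sets or arrays entered the fits that left some out.

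Of the 79 member results called, 33 kept their call under every alternative run for them, none turned direction, and 182 of 1146 recomputed values missed the threshold. Over all 6112 probe sets the calls with age in ago1-10 were 655, against 426 in a model of the groups compared, 985 with the arrays exchanged and 201 with the block. In ago1-11 they were 154, against 91 over plain probe sets, 75 in the smaller model and 93 with 1 strain code. For 35 against 21 days they were 3, against 8 with 16 added, 0 in the smaller model, 404 without the 2 arrays and 720 with them exchanged. In dcl1-9 they were 48, against 19, 285 and 106 over plain probe sets, in the smaller model and with the block. Between the alleles at 21 days they were 448, against 283, 60 and 980 over plain probe sets, in the smaller model and with the arrays exchanged. For the difference of age effects they were 31, against 55 with quantile normalization, 16 with no filter, 4 in the smaller model and 130 with the arrays exchanged. Signal near background limits the sizes for the 19 and 22 probe sets whose wild-type means at 21 days were under 12.2.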

Other observations

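The unnamed probe set 17963_at, chosen here after its values were seen, read 3249, 1028, 1229 and 1670.2 in ago1-10 at 9 days, 1275, 843 and 64.9 at 21 days and 136, 47.7 and 51.1 at 35 days. In ago1-11 it read 448, 101 and 537 at 21 days, against 781, 1705, 596 and 445 at 9 days. The 35-day arrays were below every ago1-10 array of 9 days, and the 21-day arrays held 1 value close to the 35-day level. Its differences of 21 from 9 days did not pass in ago1-10 (-1.97, limma adjusted p = 0.0504) or ago1-11 (-1.41, limma adjusted p = 0.33). In dcl1-9 at 21 days it read 490.1, 214, 125 and 84.8, against 271, 572, 302 and 275 in the second Ler set, and the groups overlapped.

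The unnamed 19017_at, likewise chosen after its values were seen, was lower at 9 days in both ago1 alleles than in the wild types. It read 146, 178, 135 and 145 in ago1-10 and 114, 164, 131 and 52.0 in ago1-11 at 9 days, against 576, 693 and 428 in Ler and 362, 722 and 457 in Col. At 21 days the mutants read 162, 176 and 143 in ago1-10, 155, 136 and 97.3 in ago1-11 and 218, 120.1, 172 and 154 in dcl1-9, against 110.3, 151 and 150.4 in the first Ler set and 98.7, 161, 175 and 178 in the second. The 9-day wild-type arrays were chosen to be high, so the 9-day difference is a description with no test.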
